A study of Mus musculus with 1989 samples.

Results

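The genes described here were Notch1, Hes1, Dtx1, Ptcra and Il2ra, which were chosen by name as genes of the Notch pathway and of the pre-TCR checkpoint. All 5 had a row among the 8846 genes of the scRNA-seq table, and 118 of the 138317 peaks of the scATAC-seq table were assigned to them because their transcription start was the nearest one of a protein-coding gene. The thymocytes came from the thymus of male C57BL/6 mice, an inbred wild-type strain, with an age of 7 weeks in the labels, and no transgene or treatment was named for any group. The droplet scRNA-seq data were 1 library of 1993 unsorted cells, and the scATAC-seq data were 182 cells sorted as DN (negative for CD4 and CD8), 125 as DP (positive for both), 119 as CD4, 116 as CD8 and 1084 total thymocytes on 36 plates. No label named an animal for a cell, so the library and each sort counted as 1 sample. No test between groups was therefore run. Intervals are exact 95% intervals of counting error only, and SDs are over cells.

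Notch1 is a receptor that is cut after it binds a ligand on a neighboring cell, and its inner part then joins the DNA-binding protein RBPJ in the nucleus and turns on target genes. Hes1, a transcriptional repressor, and Dtx1, a ubiquitin ligase that modulates Notch itself, are among the classical targets of that complex. Ptcra encodes the pre-TCR alpha chain, which pairs with a newly rearranged TCR beta chain before a TCR alpha chain exists, and Il2ra encodes CD25, the alpha chain of the IL-2 receptor and the surface marker by which the middle stages of DN thymocytes are told apart. In the thymus, Notch signaling is needed for entry into the T lineage and is known to decline once the pre-TCR has signaled.

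The cells were clustered again without the variable genes on the pathway lists, including the 5 genes described here, so that these did not shape the clusters. Clusters were named from marker genes. The DN-like class had 79 cells, the immature single-positive (ISP)-like class 95, the cycling DP blast (DPbla)-like class 20.4% of all cells, the resting, rearranging DP (DPre)-like class 380 and the DP cells under selection (DPsel)-like class 418. The CD4sp-like and CD8sp-like classes had 162 and 120 cells, and together they are called SP-like. Nonconventional lymphocyte (NCL)-like and antigen-presenting (APC)-like cells numbered 32 and 37. Clusters 6 and 8, of 148 and 115 cells, stayed unnamed because more markers of another class were among their 10 leading genes. One of the 3 DPsel-like clusters, with 75 cells, scored 0.401 for DPsel and 0.396 for CD4sp markers. The DN-like cluster was led by Plac8, Myl10, Crip1, Cdk6 and Tcrg-C2. Its cells had a median of 1932 detected genes, against 1221 in DPre-like and 3141 in ISP-like cells. Shares of cells with a gene are therefore given after each cell was thinned to 1300 steps, where a step orders the different values found in one cell from low to high and stands in for a count. The share of cells with a deposited value above 0, without thinning, stands beside it.

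All 5 genes had their highest or, for Dtx1, nearly their highest share of cells in the DN-like cluster, but they left the later classes at different points. With thinning, Il2ra and Hes1 were seen in few cells of any class after the DN-like cluster. Without it, 13.7% and 14.7% of ISP-like cells had a value above 0 for Il2ra and Hes1. Notch1 decreased in steps, Ptcra stayed up to the DPre-like class and was lost in the DPsel-like class, and Dtx1 had a second high share in the SP-like classes.

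**Figure D1:**
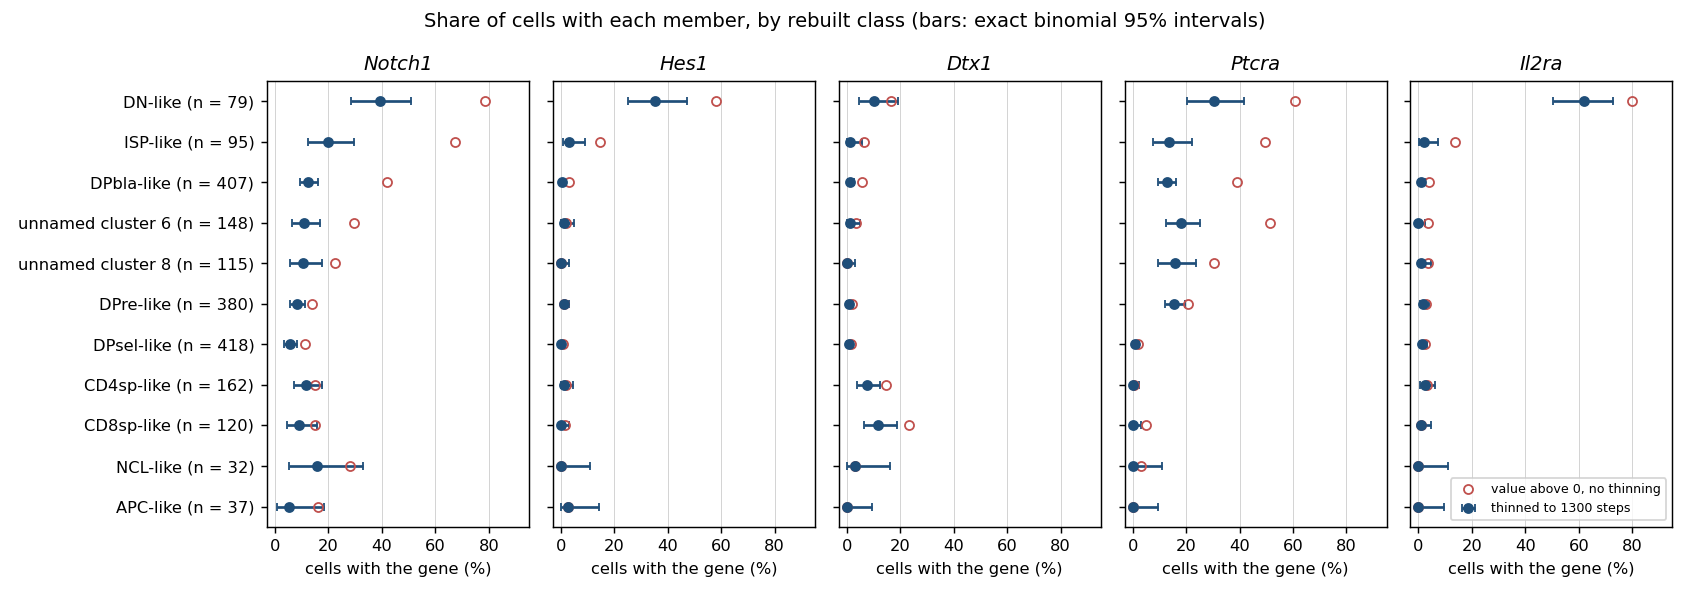
Share of cells with each gene (x axis, percent) in the rebuilt classes (y axis), after thinning to 1300 steps with exact binomial 95% intervals (filled) and as the share of values above 0 without thinning (open). Il2ra lay at 62% in the DN-like cluster and at no more than 2.47% in every other class after thinning, whereas Ptcra lay between 12.8% and 18.2% in the ISP-like to DPre-like classes and clusters.

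Notch1, the receptor, was detected in 39.2% of DN-like cells after thinning (interval 28.4 to 50.9%, 31 of 79 cells) and had a deposited value above 0 in 78.5%. Its share after thinning was 20% in ISP-like, 12.5% in DPbla-like, 8.16% in DPre-like and 5.5% in DPsel-like cells, while the CD4sp-like class had 11.7% and the CD8sp-like class 9.17%. On the deposited log2 scale DN-like cells had a level of 1.02 ± 0.90, ISP-like cells 0.45 ± 0.51 and DPre-like cells 0.12 ± 0.32 (mean ± SD over cells). The order of the first classes was DN-like, ISP-like, DPbla-like and DPre-like, and the DN-like interval overlapped that of the ISP-like class and lay above those of the DPbla-like and DPre-like classes. The ISP-like interval, 12.5 to 29.5%, lay above that of the DPre-like class, 5.61 to 11.4%, and overlapped that of the DPbla-like class. The DN-like share exceeded the DPre-like share by 31.1 percentage points (interval 20.6 to 42.4). The SP-like share exceeded it by 2.48 points with an interval of -1.96 to 7.24, which includes no difference. The highest single value of Notch1 was 3.08, in a DN-like cell. In the APC-like cells, a lineage outside the T cells, Notch1 was seen in 5.41% after thinning.

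Hes1, the repressor, was detected in 35.4% of DN-like cells after thinning (interval 25 to 47%) and in 3.16% of ISP-like cells. Without thinning, its value was above 0 in 58.2% of DN-like and 14.7% of ISP-like cells (8.3 to 23.5%). Its log2 level was 0.80 ± 0.98 in DN-like and 0.08 ± 0.28 in ISP-like cells, and the highest value was 2.85. In the named DP classes and the CD4sp-like class the share lay between 0.239% and 1.32%, and it was 1.35% in cluster 6 and 0% in cluster 8. No CD8sp-like cell had Hes1 after thinning (exact interval up to 3.03%), and 2 of 120 had a deposited value above 0. Of the 91 cells of the library with a Hes1 value above 0, 46 were DN-like, although this class made up 3.96% of all cells. The DN-like share exceeded the DPre-like share by 34.1 points (interval 24.3 to 45.2). APC-like cells had Hes1 in 1 of 37 cells.

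Dtx1, the ubiquitin ligase, was the rarest of the 5 in the DN-like cluster, with 10.1% of cells after thinning (interval 4.47 to 19%, 8 of 79 cells) and a log2 level of 0.12 ± 0.32. It was seen in 0.789% of DPre-like and 0.957% of DPsel-like cells. In the mature classes it was detected again, in 12 of 162 CD4sp-like cells (7.41%) and 14 of 120 CD8sp-like cells (11.7%). These 2 shares and that of the DN-like cluster had overlapping intervals. The SP-like share exceeded the DPre-like share by 8.43 points (interval 5.21 to 12.4), and the DN-like share did so by 9.34 points (interval 4.21 to 18). The highest value of Dtx1 in the library, 2.67, was in a CD8sp-like cell. Of the 114 cells with a value above 0, 13 were DN-like and 52 were SP-like. None of 37 APC-like cells had Dtx1 (exact interval up to 9.49%).

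Ptcra, the pre-TCR alpha chain, was detected in 30.4% of DN-like cells after thinning (interval 20.5 to 41.8%), in 13.7% of ISP-like, 12.8% of DPbla-like and 15.5% of DPre-like cells, and in 18.2% and 15.7% of cells of the unnamed clusters 6 and 8. The DN-like interval lay above those of the DPbla-like and DPre-like classes and overlapped the others, and the ISP-like to DPre-like intervals overlapped each other. The share was 0.957% in DPsel-like cells, and none of 282 SP-like cells had Ptcra after thinning (exact interval up to 1.3%), while 7 of them had a deposited value above 0. These limits hold for cells in which the gene is seen after thinning, not for cells that express it. Summed over cells, the thinned steps numbered 68 in 380 DPre-like and 0 in 282 SP-like cells, a ratio of SP-like over DPre-like with an exact upper limit of 0.0751. On the log2 scale the Ptcra level was 0.84 ± 0.97 in DN-like cells, 0.23 ± 0.48 in DPre-like and 0.02 ± 0.14 in DPsel-like cells. The 3 DPsel-like clusters gave like shares of 0.532%, 1.29% and 1.33%. No APC-like cell had a Ptcra value above 0.

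Il2ra, the gene of CD25, had the highest share of the 5 in the DN-like cluster, with 62% of cells after thinning (interval 50.4 to 72.7%, 49 of 79 cells) and 79.7% with a value above 0. Its log2 level there was 1.48 ± 1.07, and its highest value was 3.79. The share was 2.11% in ISP-like cells and between 0.833% and 2.47% in the named DP and SP classes. Without thinning, 13.7% of ISP-like cells and 15.4% of a DPbla-like cluster of 65 cells had a value above 0. The DN-like share exceeded the DPre-like share by 60.2 points (interval 49 to 70.1), and the SP-like share differed from it by -0.0691 points (interval -2.23 to 2.43). Among the later cells, the DPsel-like cluster of 75 cells had Il2ra in 4 cells after thinning, a share of 5.33% with an interval of 1.47 to 13.1%. Over the 10 DPsel-like cells with an Il2ra value above 0, the genes on the list for regulatory T cells were seen unequally: Ikzf2 in 7 cells, Tnfrsf18 in 6, Tnfrsf4 in 5, Capg in 2, and Ctla4, Tnfrsf9 and Foxp3 in 1 each. Among all DPsel-like cells the shares were 43.5%, 23.2%, 12.2%, 10.5%, 1.91%, 8.37% and 0.718% in the same order. In the APC-like cells Il2ra was also not seen (exact interval up to 9.49%).

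**Figure D2:**
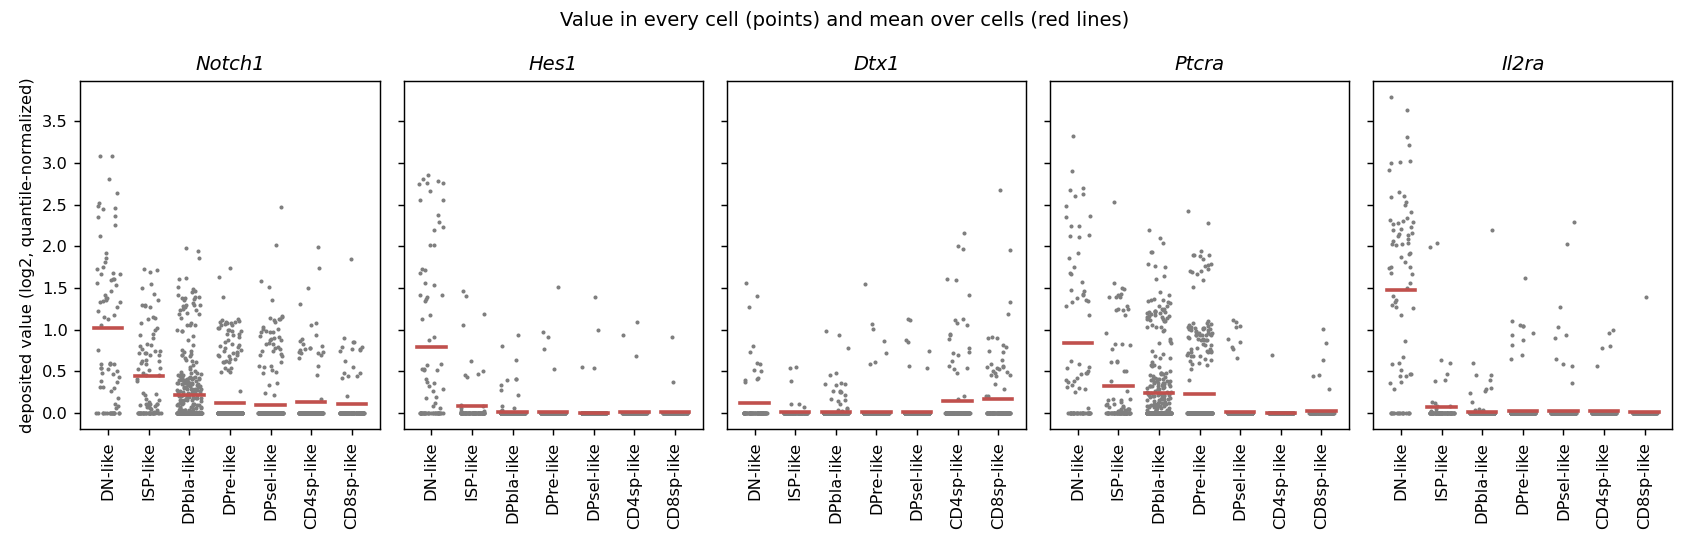
Deposited log2 value (y axis) of each gene in every cell (points, spread sideways at random) of 7 classes (x axis), with the mean over cells as a red line. Values above 2 for Hes1 were in DN-like cells, as were most of those for Il2ra, and the highest Dtx1 value lay in the CD8sp-like class.

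Within the DN-like cluster most cells had several of the 5 genes, in varying combinations. Of 79 cells, 3 had values above 0 for all 5 genes, 18 had 4, 35 had 3 and 18 had 2, and 1 cell had none. Notch1 was above 0 in 62 cells, Il2ra in 63, Ptcra in 48 and Hes1 in 46. Notch1 and Il2ra shared 49 cells, where the product of their shares gives 49.4, Notch1 and Hes1 shared 36 (36.1) and Ptcra and Il2ra 38 (38.3), so that these pairs were seen together about as often as their single shares give. Dtx1 and Ptcra shared 10 cells (7.9). In the ISP-like class 21 of 95 cells had none of the 5 genes and 6 had 4, and Notch1 and Ptcra were the pair most often seen, in 37 cells, where the product of their shares gives 31.7. All 13 ISP-like cells with Il2ra had Notch1 (8.76 from the product), Notch1 and Hes1 shared 13 cells (9.43) and Hes1 and Il2ra 6 (1.92). These co-detection counts are without thinning, and ISP-like cells had a median of 8512 steps. The part of depth differences between cells in them was not tested. The DN-like cluster also held the genes of the gamma delta T cell list (Trdc, Tcrg-C1 and Sox13), whose summed level was 285 thinned steps per 100 cells against 21.1 in DPre-like cells. Trdc was detected in 41.8% of DN-like cells after thinning and in 43.2% of ISP-like cells. Their part in the levels above was not tested. Foxp3, Tnfrsf9, Cd79a and Ms4a1 were at 0 in all DN-like cells, and Cd8a was detected in 17.7% of them after thinning, against 95.3% of DPre-like cells.

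The genes whose mean log2 values over the 9 named classes were most like those of each member were found among 8198 genes that reached 10% of cells in some class. For Notch1 they were Cdk6, Esm1, Tcrg-C2, Uck2 and Tmem121, with Pearson's r from 0.985 down to 0.971. For Hes1 they were Cpa3, Gm17590, Myl10, Il2ra and Tshz2, down to 0.997, and for Il2ra they were Tshz2, Cpa3, Gm17590, Gm5111 and H19, down to 0.999. Ptcra was most like 4930520O04Rik, Cox6b2, Smarca4, Naxd and Uck2, down to 0.974. The genes most like Dtx1, Zfp780b, Usb1, Plec, Socs3 and Dph5, had lower values of 0.921 to 0.904. The 9 points of each r come from 1 library, and the DN-like mean is the highest point for 4 of the 5 members.

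The rest of the pathway was described as the fold between classes in thinned steps per cell, for genes above 0 in at least 10% of either class. Of 6235 such genes, 16.7% were at least 2-fold higher and 12.7% at least 2-fold lower in DN-like than in DPre-like cells. The 5 members were 53.6-fold (Il2ra, interval 24.8 to 138), 40.1-fold (Hes1, 17.2 to 114), 14.4-fold (Dtx1, 3.6 to 82.9), 5.94-fold (Notch1, 3.69 to 9.63) and 2.9-fold higher (Ptcra, 1.92 to 4.34). Some genes passed the 10% limit only through the DN-like cells and were thus selected for being seen there. These were Hes1, Dtx1 and Il2ra and, of the genes named next, Notch2, Notch3, Lfng, Mfng, Kat2a, Myc, Igf1r, Il7r, Id2 and Fbxw7, so their folds and the counts that hold them are descriptions. Of the other receptors, Notch2 was 4.81-fold higher (interval 1.11 to 20.9) and Notch3, itself a target of Notch1, was 4.47-fold higher (1.93 to 10.2). Ligands are expressed by the thymic stroma and were not among the genes compared.

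Of 11 processing and modification genes compared, 3 were at least 2-fold higher and 0 lower: Lfng, a glycosyltransferase that tunes ligand binding, at 4.81-fold with an interval of 0.644 to 35.9, Dtx3 at 2.48-fold (1.29 to 4.58) and Mfng at 2.1-fold (0.732 to 5.41). The median of this list was 1.2-fold, beside 1.06-fold over all genes compared. The lowest of this list were Aph1a, Itch and Fbxw7, at 0.863, 0.734 and 0.55-fold. In the nuclear complex, 1 of 9 genes was past 2-fold in either direction each, and the median was 0.962-fold. Rbpj, the DNA-binding partner, was 1.33-fold (0.524 to 2.97). Kat2a was 4.01-fold from 5 and 6 steps (0.968 to 15.8), Snw1 was 1.12-fold, and Ncor1, Spen and Ep300 were the lowest at 0.867, 0.515 and 0.192-fold.

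Of 10 target genes compared, 7 were at least 2-fold higher, 4 of them members, and 1 was lower. Of these 7, only Ptcra did not enter through the DN-like cells alone. The others that were higher were Notch3, Myc at 5.55-fold (2.46 to 12.7) and Igf1r at 2.22-fold (0.692 to 6.26). Gata3 was 1.83-fold, Bcl11b 0.996-fold and Tcf7, a T lineage factor, 0.411-fold (0.323 to 0.516). Of 13 genes of the pre-TCR complex and its proximal signal, 2 were at least 2-fold higher, Ptcra and the CD3 chain Cd3g at 2.27-fold (2 to 2.58), and 3 were lower. These were Themis at 0.482-fold, the kinase Zap70 at 0.406-fold and the zeta chain Cd247 at 0.388-fold, and the list's median was 0.713-fold. Cd3d was 1.05-fold. Among 7 genes of the IL-2 and IL-7 receptors and their signal, the IL-7 receptor alpha chain Il7r had 15 steps in DN-like cells and 1 in DPre-like cells, a ratio of 72.2 with an interval of 11.1 to 3037.4. Stat5a was 1.85-fold, Stat5b 0.859-fold, Jak1 0.837-fold and the inhibitor Socs1 0.357-fold (0.196 to 0.603). Among the E proteins and their Id inhibitors, Id3 was 0.11-fold (0.0296 to 0.287) and Tcf12 0.622-fold (0.444 to 0.854), while Id2, Tcf4 and Tcf3 were 2.19, 1.37 and 1.25-fold with intervals that include 1.

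Between SP-like and DPre-like cells, 11% of 4688 genes were at least 2-fold higher and 10.3% at least 2-fold lower. Dtx1 was 13.5-fold higher in SP-like cells (interval 4.19 to 69), Notch1 1.27-fold (0.758 to 2.12) and Ptcra lower as given above, while Hes1 and Il2ra did not reach 10% of either class. Of the 7 processing genes compared here, Lfng was 38.2-fold higher (12.6 to 189) and Mfng 3.03-fold higher (1.64 to 5.85). Of the 6 targets, Myc was 3.01-fold (1.51 to 6.3) and Tcf7 0.427-fold (0.374 to 0.487). Id2 was 13.1-fold higher (7.04 to 27) and Il7r 87.6-fold with 1 step in DPre-like cells (15.2 to 3512.1). Of these, Dtx1, Lfng, Mfng, Myc, Id2 and Il7r passed the 10% limit only through the SP-like cells. The Rbpj level was 0.743-fold (0.377 to 1.41).

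In the scATAC-seq data a count is a read in a peak of 1 cell, and the signal of a locus is the sum over its peaks per 10000 counts in all peaks. The sorts had 478264 to 1108749 counts, and total thymocytes had 6402950. The numbers in the labels of sorted cells fell into series, and only the 4000s and 31000s held all 4 sorts. The 1000s, 2000s and 32000s held DN cells only, with 339780, 220049 and 258758 of the 1108749 DN counts. The 3000s held DP cells only, with 147774 counts. Pooled values of DN and DP thus mix sort with series. Peaks within 2 kb of a transcription start held 47.3 to 49.7% of the counts in the 4 sorts and 59.2% in total thymocytes. At Cd8a, which marks the sort, the signal was 1.55 in DN and 7.74 in DP sorted cells. Positions are on GRCm38. Notch1 lies on chromosome 2 (26457903-26516663, minus strand), Hes1 on chromosome 16 (30064384-30067796, plus strand), Dtx1 on chromosome 5 (120680202-120711927, minus strand), Ptcra on chromosome 17 (46755663-46763712, minus strand) and Il2ra on chromosome 2 (11642807-11693193, plus strand). They had 43, 33, 15, 3 and 24 peaks. All peaks were listed as 4000 bp wide, but in 9726 of 53108 cases a peak that lay within its neighbors had more counts than both together, so that counts came from less than the listed width. Peaks are therefore placed by their center. Since close peaks can still share reads, intervals of a locus rest on peaks that do not overlap.

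The signal of whole loci differed less between DN and DP sorted cells than the RNA did between DN-like and DPre-like cells. These are unlike measures, since a locus sums many peaks and the DP sort was not split into the DP classes of the RNA. Notch1 had 1.93 in DN, 1.57 in DP, 1.4 in CD4 and 1.72 in CD8 sorted cells. Hes1 had 2.41, 1.55, 2.47 and 2.43 in the same order, lowest in DP sorted cells. Dtx1 had 0.803, 0.627, 0.573 and 0.849. Ptcra had 0.253, 0.314, 0.125 and 0.182, higher in DN and DP than in both single-positive sorts. Il2ra had 2.13, 3.64, 2.69 and 2.83, lowest in DN sorted cells. Total thymocytes had 1.98, 1.52, 0.59, 0.261 and 2.36 for the 5 loci in the order in which they are named here. The Hes1 peaks lay from -230 to 90.8 kb of its start, so that its sum holds distant peaks. The peak at the Hes1 start, given below, had another order and was lowest in CD4 sorted cells. Assignment to the nearest start does not show that a peak acts on that gene.

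DN over DP, the ratio over all peaks, with the interval from peaks that do not overlap, was 1.23 for Notch1 (interval 0.784 to 1.95), 1.56 for Hes1 (0.999 to 2.01), 1.28 for Dtx1 (0.569 to 1.86), 0.805 for Ptcra (0.396 to 1.83) and 0.585 for Il2ra (0.487 to 0.903). Only the interval of Il2ra left out 1. None of the 5 loci was past 2-fold, beside 14.5% of 11923 loci at least 2-fold higher and 4.29% at least 2-fold lower. The lower Il2ra signal in DN did not hold within the cells whose label numbers lie in the 4000s, where DN had 3.65 and DP 3.18, and it did in the 31000s, with 1.89 and 2.23. DP over both single-positive sorts (SP, 235 cells), the ratio was 2.06 for Ptcra over all its peaks and 3.34 over those that do not overlap (interval 1.26 to 9.42), 0.631 for Hes1 (0.493 to 0.993), 1.01 for Notch1, 0.892 for Dtx1 and 1.32 for Il2ra. There 5.92% of 11478 loci were at least 2-fold higher and 11.9% at least 2-fold lower. The Ptcra ratio became 0.934 when all peaks over the gene body with 5 kb on each side were counted.

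**Figure D3:**
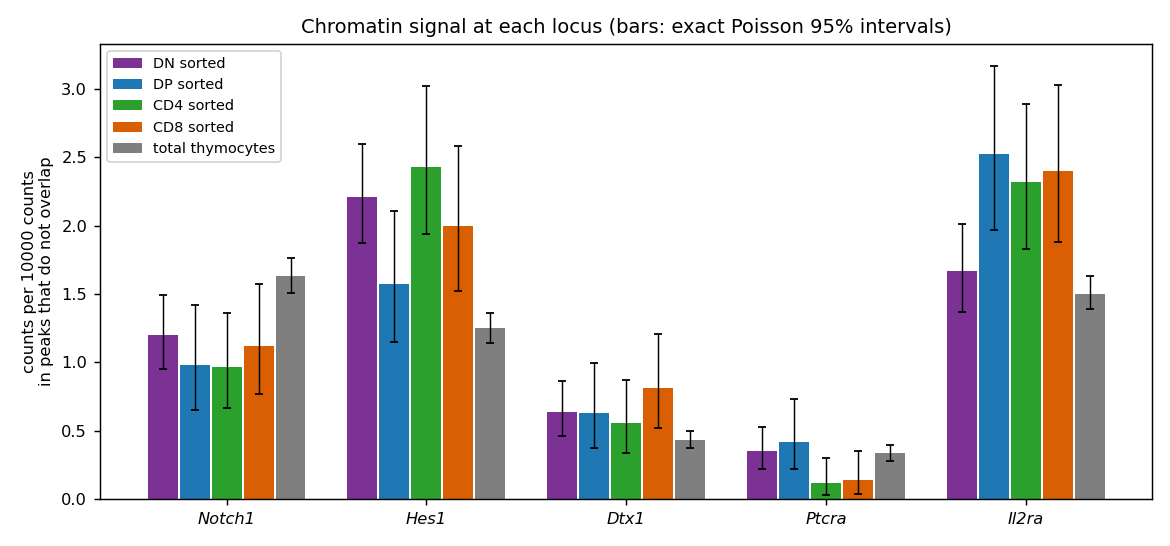
Chromatin signal of each locus (y axis, counts per 10000 counts in peaks that do not overlap) in the 4 sorts and in total thymocytes, with exact Poisson 95% intervals. The bars of Ptcra were lower in CD4 and CD8 than in DN and DP sorted cells, and the Il2ra bar was lower in DN than in the other sorts.

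Single peaks showed larger differences. Of 20464 peaks with at least 20 counts over DN and DP, 14% were at least 2-fold higher and 12.6% at least 2-fold lower in DN. Of the members' 118 peaks, 18 had that many counts, and 4 were higher and 5 lower. All 4 that were higher were at Hes1, and 4 of the 5 that were lower were at Il2ra. The 4 Hes1 peaks had 18 to 22 counts in DN and 1 to 4 in DP, so that they reached the limit through their DN counts, and these counts of peaks are a description. Over DP and SP, 19 of the members' peaks had enough counts, with 4 higher and 4 lower in DP, beside 11.6% higher and 17.2% lower of 20143 peaks.

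At Hes1 the peak centered 93 bp before the start had 22 counts in DN, 4 in DP, 1 in CD4 and 3 in CD8 sorted cells, or 19.8, 8.36, 1.79 and 6.06 CPM (counts of a peak after scaling each sort to the same total). DN over SP, this was 5.22-fold (interval 1.77 to 20.8), and DN over DP it was 2.37-fold (0.806 to 9.47). The peak with the largest DN to DP ratio of those with enough counts lay at -153961 bp from the Hes1 start, between genes, at chr16:29909380-29913379. It was thus picked for being high in DN, and its values are a description. It had 22 counts in DN sorted cells and 1 each in DP, CD4 and CD8, which is 9.49-fold DN over DP (interval from 1.53 upward, with 1 DP count) and 10.4-fold DN over SP (2.57 to 91.6). The 22 counts came from 17 DN cells with at most 2 each, and from 4 of the 5 label-number series of DN cells, with 10, 3, 5 and 4 counts. Of these, 10, 3 and 4 counts lay in the 1000s, 2000s and 32000s. These series held DN cells only, so that sort and series cannot be told apart there. The series in the 4000s had 0. Within the 31000s it was 5 counts in DN against 1 in DP and 1 in CD4. Total thymocytes had 9 counts, or 1.41 CPM. A further peak at -40553 bp had 21 counts in DN and 2 in DP (4.53-fold, 1.11 to 39.8), but also 8 in CD4 and 6 in CD8. The fourth of the higher peaks, at -208774 bp, was highest in CD4, with 34 CPM against 16.2 in DN and 6.27 in DP. In pooled counts other Hes1 peaks had the opposite order. The one at -219598 bp was 0.474-fold DN over DP (0.183 to 1.25), and those at -219995 and -220379 bp were 0.388-fold (0.157 to 0.878) and 0.316-fold (0.103 to 0.832) DN over SP. The listed windows of these peaks overlap. At -220379 bp CD8 had 30.3 CPM, beside 5.41 in DN and 5.38 in CD4. At -219995 bp all SP counts lay in the 4000s, where DN had 23.1 CPM, CD4 15.5 and CD8 32.4. The peak 1656 bp after the start was 0.863-fold DN over DP (0.3 to 2.8).

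The central bases of the peak at -153961 bp of Hes1 are shown because this peak had the largest DN to DP ratio among the members' peaks with enough counts, although it held 22 of the 267 DN counts of the locus. They were read from RefSeq's GRCm38.p6 sequence at chr16:29911230-29911529, plus strand. Capitals mark matches, on either strand, to GTGGGAA or GTGAGAA (RBPJ), CAGCTG or CAGGTG (E-box, bound by E proteins) and TGTGGT (RUNX), each searched as written and as its reverse complement.

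Hes1 peak at -153961: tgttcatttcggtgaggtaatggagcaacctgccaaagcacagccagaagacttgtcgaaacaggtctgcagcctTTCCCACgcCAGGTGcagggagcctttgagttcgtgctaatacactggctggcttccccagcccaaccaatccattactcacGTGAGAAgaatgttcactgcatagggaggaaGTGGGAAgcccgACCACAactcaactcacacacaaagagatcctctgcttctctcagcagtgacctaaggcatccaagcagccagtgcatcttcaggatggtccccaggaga

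The stretch held 3 RBPJ matches with 1 E-box and 1 RUNX match. Of the central 300 bases of all 138317 peaks, 6.37% held GTGGGAA, 5.43% GTGAGAA, 28% CAGGTG and 27.5% TGTGGT. At least 3 RBPJ matches were found in 56 of them (0.0405%), and overlapping peaks can hold the same match. This stretch was chosen after its counts were seen. A match of letters is a description and not a measured binding site.

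**Figure D4:**
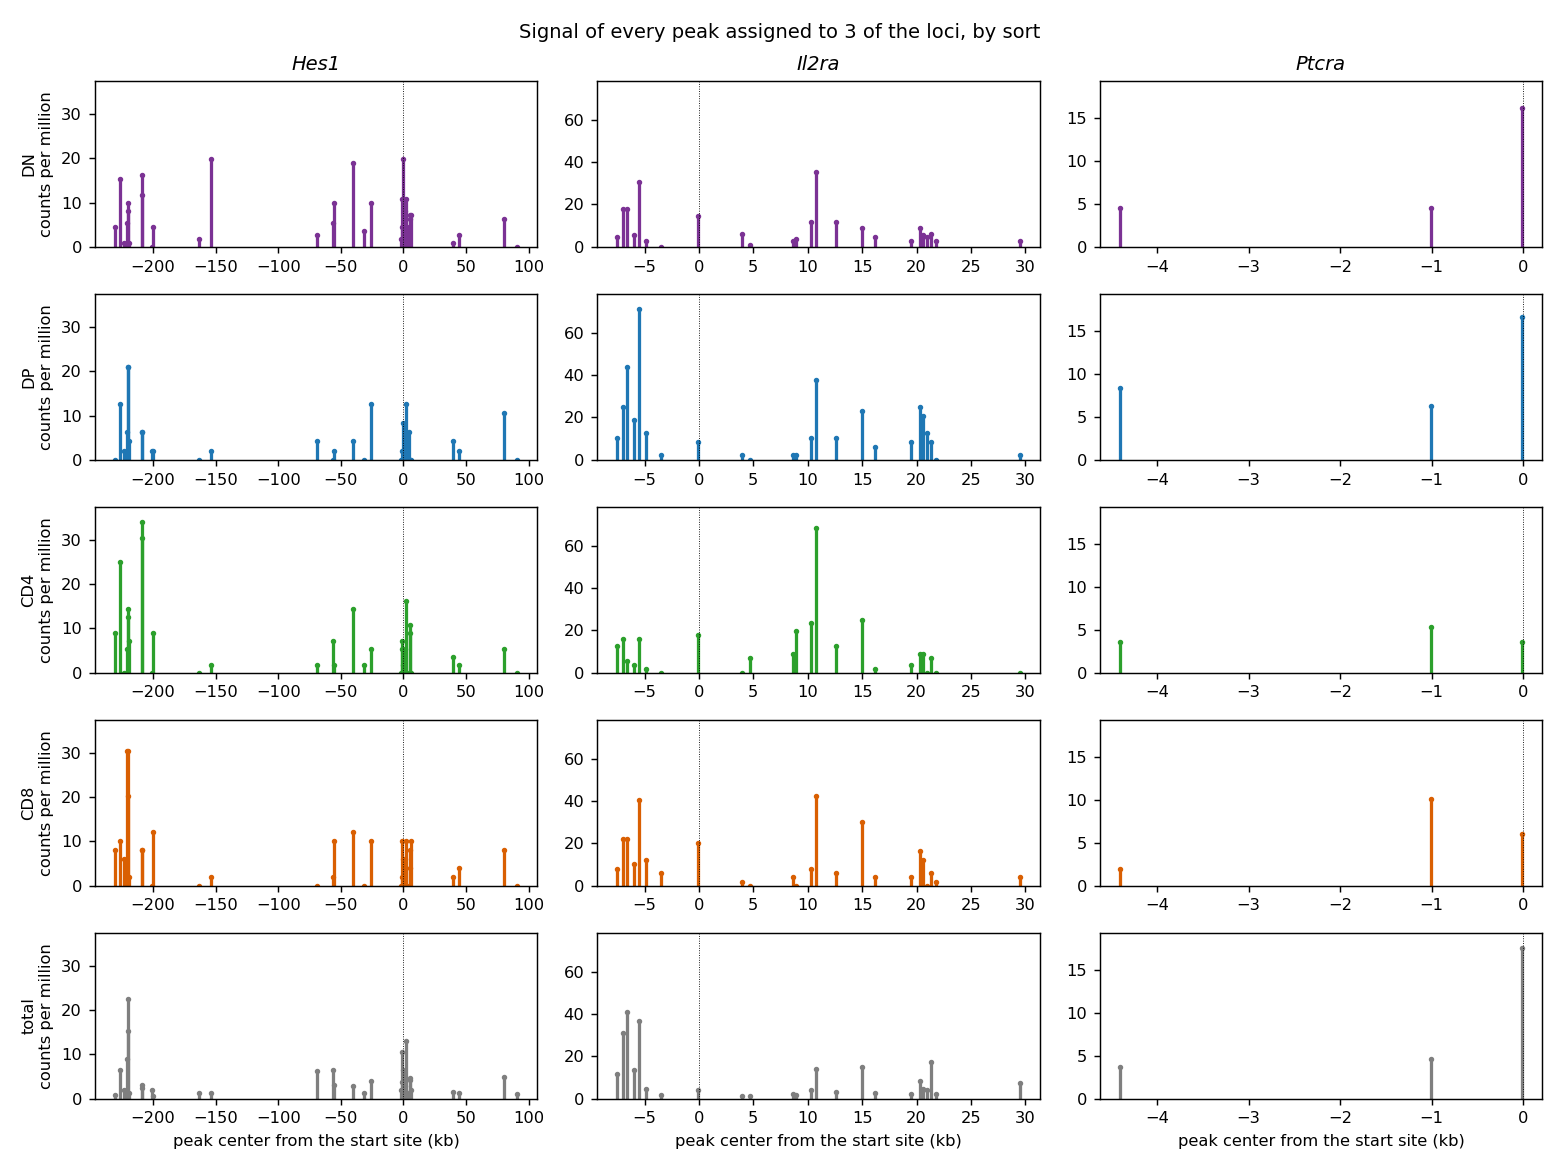
CPM (y axis) of every peak assigned to Hes1, Il2ra and Ptcra (columns) in each sort and in total thymocytes (rows), by distance of the peak center from the start site in kb (x axis, negative upstream). At Hes1 the peak at -153961 bp stands out in DN sorted cells, and at Il2ra the peaks near -6.63 and -5.52 kb are highest in DP sorted cells.

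At Il2ra the sorts were ordered differently at the start and upstream of it. The peak centered 66 bp before the start had 16 counts in DN, 4 in DP, 10 in CD4 and 10 in CD8 sorted cells, or 14.4, 8.36, 17.9 and 20.2 CPM. DP was lowest in these sums and in the 4000s, but not in the 31000s, where each sort had 1 count. DN over DP was 1.73-fold with an interval of 0.557 to 7.09, which includes no difference. The peak at -5516 bp from the start had 34 counts in DN, 34 in DP, 9 in CD4 and 20 in CD8, or 30.7 CPM in DN and 71.1 in DP. This peak was picked after its counts were seen, so its folds are a description. DN over DP was 0.431-fold (interval 0.26 to 0.715) and DP over SP 2.58-fold (1.53 to 4.39). The peak at -6632 bp gave 0.411-fold (0.211 to 0.796) and 3.3-fold (1.6 to 7.02). Its lower DN value did not hold within label-number series, with 41.6 CPM in DN and 39.8 in DP in the 4000s and 13.5 and 0 in the 31000s, from 1 and 0 counts. The higher DP value over SP was also turned in the 31000s, with 1 count in CD4 and 5 in CD8. Within the 4000s, the peak at -5516 had 55.5 CPM in DN and 65.1 in DP, and within the 31000s 13.5 and 74.4 from 1 and 4 counts. The intronic peak 10759 bp after the start had 39, 18, 38 and 21 counts, with 35.2 CPM in DN, 37.6 in DP and 56 in SP. This order did not hold within the 4000s, with 60.1 CPM in DN, 25.3 in DP, 75.2 in CD4 and 43.2 in CD8. Within the 31000s the values were 13.5, 74.4, 37.7 and 31.9 from 1, 4, 4 and 1 counts.

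The central bases of the peak at -5516 (chr2:11637142-11637441, plus strand) and the promoter of Il2ra (chr2:11642542-11642841, plus strand, from 250 bases before to 50 after its start in RefSeq) are shown because these orders differ between them, with the same letters in capitals.

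Il2ra peak at -5516: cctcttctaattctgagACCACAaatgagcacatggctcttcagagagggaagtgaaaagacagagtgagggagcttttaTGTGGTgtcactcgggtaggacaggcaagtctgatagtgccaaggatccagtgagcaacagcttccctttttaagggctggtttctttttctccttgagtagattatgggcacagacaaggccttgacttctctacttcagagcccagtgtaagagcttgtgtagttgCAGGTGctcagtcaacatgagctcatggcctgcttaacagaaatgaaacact

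Il2ra promoter: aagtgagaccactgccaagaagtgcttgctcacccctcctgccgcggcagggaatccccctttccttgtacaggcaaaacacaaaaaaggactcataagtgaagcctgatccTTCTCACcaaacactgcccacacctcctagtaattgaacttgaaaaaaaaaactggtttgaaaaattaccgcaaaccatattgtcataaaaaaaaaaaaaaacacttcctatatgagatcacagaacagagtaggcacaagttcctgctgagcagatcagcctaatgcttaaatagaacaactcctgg

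The upstream stretch had 2 RUNX matches and 1 CAGGTG match and no RBPJ match, and the promoter had 1 match to GTGAGAA, on the minus strand. Of 32851 promoters of this length, 4.59% held GTGAGAA and 6.38% GTGGGAA.

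At Ptcra the peak centered 8 bp before the start had 18 counts in DN, 8 in DP, 2 in CD4 and 3 in CD8 sorted cells, or 16.2, 16.7, 3.58 and 6.06 CPM. Total thymocytes had 113 counts, or 17.6 CPM, which is like DN and DP. DN over SP was 3.42-fold (interval 1.22 to 11.8), DP over SP was 3.52-fold (1.02 to 13.7), and DN over DP was 0.971-fold (0.402 to 2.58). Each of the 31 counts of the 4 sorts lay in a label-number series other than the 31000s, where none was seen. The promoter (chr17:46763663-46763962, minus strand, written 5′ to 3′ on that strand) is shown because this peak covers it.

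Ptcra promoter: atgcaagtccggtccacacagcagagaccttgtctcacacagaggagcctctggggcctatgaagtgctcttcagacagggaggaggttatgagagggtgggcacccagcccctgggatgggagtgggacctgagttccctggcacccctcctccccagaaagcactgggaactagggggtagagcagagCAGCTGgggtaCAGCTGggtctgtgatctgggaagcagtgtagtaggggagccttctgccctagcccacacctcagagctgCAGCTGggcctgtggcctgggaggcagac

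It held 3 matches to the palindromic E-box CAGCTG. At least 1 such match was found in 16.3% of all promoters and at least 3 in 0.207%. No RBPJ or RUNX match was found in it.

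Of the 43 Notch1 peaks, 3 had enough counts over DN and DP, and none of these was past 2-fold. The peak centered 17 bp before its start had 15 counts in DN, 8 in DP, 8 in CD4 and 5 in CD8 sorted cells, or 13.5, 16.7, 14.3 and 10.1 CPM, and the sorts had overlapping intervals. Total thymocytes had 352 counts, or 55 CPM, at this peak, which was 4.06-fold their DN level (interval 2.43 to 7.34) and 4.45-fold that of SP (2.57 to 8.44). The start peak of Il2ra went the other way, with 4.06 CPM in total thymocytes, 0.281-fold the DN level (0.145 to 0.561). The share of counts near any start, given above, also differed between total and sorted cells, and its part in these values was not tested. At Dtx1 only the intronic peak 26037 bp after the start had enough counts, with 26 in DN, 12 in DP, 13 in CD4 and 15 in CD8, and DN over DP was 0.935-fold (0.455 to 2.03). Dtx1 peaks near the start had at most 5 counts in any sort, so that no difference between sorts was detectable there.

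Of the other loci of the pathway, Notch3 had the highest DN to DP ratio among the 5 receptor and ligand loci with enough counts, 3.71, with a signal of 6.76 in DN, 1.82 in DP and 0.988 in SP sorted cells. Il7r had 1.42, 0.314 and 3.43, or 4.51-fold DN over DP, and Il2rb, the IL-2 receptor beta chain, was 4.46-fold. Loci at least 2-fold higher in DN numbered 1 of 5 receptors and ligands, 3 of 14 targets (Notch3 is in both lists) and 3 of 10 loci of the IL-2 and IL-7 receptors, with none lower, and 0 of 12 pre-TCR loci, with 1 lower, among loci with at least 20 counts over both sorts. Hey1, Heyl, Il7r and Il2rb had 14, 6, 15 and 6 counts in DP and reached that limit through DN, so these counts of loci are a description. Over all loci the shares were the 14.5% higher and 4.29% lower given above. Hey1 and Heyl, further targets, were 3.24 and 2.44-fold, the Rbpj locus 1.29-fold, Cd247 0.418-fold and Tcf7 0.546-fold. The lists of processing genes and of the nuclear complex had no locus past 2-fold among 22 and 11.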

How the data were processed

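The authors aligned the scRNA-seq reads with Cell Ranger (version 1.3.1 in the submitters' processing notes), filtered cells and genes, quantile-normalized the values and deposited them on a log2 scale. The authors mapped the scATAC-seq reads with Bowtie2, called peaks with MACS2 on merged cells and deposited the raw count of every peak in each cell. Of the columns, 362 were not used, because the labels give no plate number (352 total thymocytes) or no group (10 cells). Depth per cell is given as steps for RNA, 1356 to 22539, and as counts for ATAC. The 5 genes, the pathway lists and the motifs were chosen with earlier results of these data known.

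Clusters were made in Seurat 5.3.0 (R 4.3.3) (1285 of 1306 variable genes, 20 principal components, 30 neighbors, resolution of 2), giving 17 clusters, and named for the class whose markers scored highest (mean z score). Clusters with Mki67 in at least 50% of cells could only be ISP-like or DPbla-like. Doublets were not called. Named were the 5 members, the 5 genes most like each in class means, and pathway genes among the 3 highest or lowest of their list in the main contrast, plus a few for context chosen after their values were seen. Peaks were assigned by center to the nearest transcription start in GENCODE vM21, and distances are from the start of the -201 transcript. Of peak centers, 27.9% lay within 2 kb of a start, against 9.41% after a shift of 100 kb, and the build was taken to be GRCm38. Promoters were those of RefSeq (GRCm38.p6), where 4 of 5 members matched. Folds are ratios of pooled counts with exact conditional binomial intervals, share differences have Newcombe intervals, and other intervals are exact binomial or Poisson. The functions were tested on simulated data. Python 3.11.15, numpy 2.4.6 and scipy 1.17.1 were used.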

Additional observations from a re-analysis of the deposited data

How the results depend on the processing

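The share differences and the locus ratios were recomputed under each alternative that applies to them, and the shares of genes and peaks past 2-fold under 1 stricter limit. Shares of loci past 2-fold, folds of single peaks and pathway genes, co-detection and likeness were not. Of 40 alternative values of the DN-like minus DPre-like shares, 33 stayed within the counting interval of the reported value and none changed sign. The 7 others came from shares without thinning: at values above 0 the differences were 64.8 points for Notch1, 56.9 for Hes1, 40 for Ptcra and 76.9 for Il2ra, and at values above 1 they were 44.9 for Notch1, 3.01 for Dtx1 and 29.6 for Ptcra. For SP-like minus DPre-like, 36 of 40 stayed within the interval. Without thinning, Dtx1 was 16.6 points at values above 0 and 4.18 at values above 1, where Ptcra was -8.07 and Notch1 -1.99. At a resolution of 1 no cluster was CD8sp-like, and SP-like cells were CD4sp-like only. No cluster was ISP-like at that resolution or with 30 principal components, so the ISP-like shares rest on the clustering chosen, and the DPsel-like class had 268 to 491 cells over the alternatives. A second random draw of the thinning and peaks with centers at least 2000 bp apart were chosen after seeing the data, as were all comparisons of SP-like with DPre-like cells and of DP with SP sorted cells.

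Of 44 alternative DN over DP ratios of chromatin signal, 37 stayed within the interval. Il2ra turned to 1.73 when only peaks holding a start were counted and to 1.15 within the label numbers of the 4000s. Hes1 was 2.77 over the gene body with 5 kb on each side, 2.43 over start peaks and 2.62 within the 31000s, and Dtx1 was 0.474 over start peaks and 0.437 within the 31000s. For DP over SP, 40 of 44 stayed. Ptcra turned to 0.934 over the extended gene body, and Il2ra was 0.44 over start peaks, while within the 31000s Notch1 was 1.95 and Hes1 0.44. The cause was not tested. Within the 31000s Ptcra gave no ratio, since its peaks had 2 counts in DN and 0 in the other sorts. With at least 50 counts per peak, the shares past 2-fold were 5.9% higher and 7.63% lower for DN over DP and 5.86% and 8.21% for DP over SP.

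Every group was 1 sample, so no replicate was left out. No paired analysis was possible because no group had replicates to pair, and cells of different sorts were matched only by label-number series, with the values given above. The alternative with total thymocytes without a plate number was not run. Low counts limited Dtx1 and Ptcra chromatin most, and the 31000s, with medians of 1220 to 1332 counts per cell, gave few counts per locus.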
